A study of Rattus norvegicus with 36 samples.

Results

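The 6 genes described here encode receptors and neuropeptide precursors by which the projection neurons of the striatum are told apart. Drd1, Tac1 and Pdyn stood for the direct pathway, and Drd2, Adora2a and Penk for the indirect pathway. They were chosen by their known roles and matched by gene ID, with earlier results of these data known, and all 6 were among the 15884 genes tested of the 32402 IDs in the count tables. The tables held IDs only: ENSRNOG00000023688 is taken here as Drd1, ENSRNOG00000007374 as Tac1, ENSRNOG00000026036 as Pdyn, ENSRNOG00000008428 as Drd2, ENSRNOG00000001302 as Adora2a and ENSRNOG00000008943 as Penk. RNA-seq was done on the dorsal striatum of 8-week-old Sprague-Dawley rats. Sal-Sal rats received 15 saline injections, Sal-Coc rats 13 saline and 3 cocaine injections, and Coc-Coc rats 15 cocaine injections, as the labels give them. The labels give no order, and the cocaine of Sal-Coc is taken here as last, as in the group name. The Sal-Coc numbers add up to more than 15, and so to more than the 3 injections a day on 5 days that the paper describes. Each group had 3 pools, numbered 5, 6 and 7, each of 2 rats killed a day after the last injection, and each pool was sequenced as 4 technical replicates. A P value for a difference between groups therefore sets that difference against the spread between pools.

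Projection neurons make up most of the cells of the striatum, release GABA, and fall into a pair of classes. Those of the direct pathway project to the output nuclei of the basal ganglia and carry the D1 dopamine receptor (Drd1), which raises cyclic AMP, together with the precursors of substance P (Tac1) and dynorphin (Pdyn). Those of the indirect pathway project to the external pallidum and carry the D2 dopamine receptor (Drd2), which lowers cyclic AMP, an adenosine receptor (Adora2a), which raises it, and the precursor of enkephalin (Penk). Cocaine blocks the reuptake of dopamine, so both dopamine receptors are exposed to more of their ligand. Dynorphin acts on kappa opioid receptors, among them those on dopamine terminals, where it lowers dopamine release, and Pdyn is known as a gene whose striatal mRNA responds to psychostimulants.

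The upstream sequences of Pdyn and Drd2 are shown because these genes stood out in the values below. Pdyn differed most between groups, and Drd2 was part of the pair of genes, with Tac1, that varied most closely together over the pools. Any link between the sequences and the values was not tested. RefSeq promoter windows of the GRCr8 assembly matched 4 of the 6 symbols (Drd1, Tac1, Pdyn and Drd2). In those of Drd1 and Tac1 the start site lay inside the annotated gene, and they are not printed. Each sequence below is the 250 bases before the annotated start, 5′ to 3′ on the gene's strand, with motif matches on either strand in capitals. The Pdyn window is chr3:137366504-137366753, minus strand, and the Drd2 window chr8:58605153-58605402, plus strand.
Pdyn: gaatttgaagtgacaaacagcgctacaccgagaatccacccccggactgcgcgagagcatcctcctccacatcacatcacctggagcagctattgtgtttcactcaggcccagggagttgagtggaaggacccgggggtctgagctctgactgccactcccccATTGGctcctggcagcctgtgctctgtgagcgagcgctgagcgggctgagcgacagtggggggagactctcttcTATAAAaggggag
Drd2: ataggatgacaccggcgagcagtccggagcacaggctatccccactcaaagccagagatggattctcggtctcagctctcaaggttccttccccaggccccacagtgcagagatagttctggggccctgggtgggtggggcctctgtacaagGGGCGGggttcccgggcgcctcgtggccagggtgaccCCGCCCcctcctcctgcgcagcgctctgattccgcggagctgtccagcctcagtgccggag
In Pdyn the capitals mark a CCAAT box (CCAAT, read here on the other strand) and a TATA box (TATAAA) close to the start. In Drd2 they mark 2 GC boxes (GGGCGG), 1 on either strand, and no TATA or CCAAT box was found in that window. Of 33469 RefSeq windows of this length, 34.0% held CCAAT, 12.9% TATAAA and 30.5% GGGCGG. The half-site of the cyclic AMP response element (TGACG) was found in 18.2% of windows and, among the 4 matched genes, in Tac1 only. The full element (TGACGTCA, which contains the half-site) was in 1.59% of windows and the AP-1 motif (TGANTCA) in 6.34%, and neither was in any of the 4. Only these exact letters were searched, so variant forms of the sites may be present in the windows. G and C made up 59.2% of the Pdyn window and 66.0% of the Drd2 window, against a median of 51.2% over all windows.

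Total counts ran from 29870775 to 39493867 per pool, and all 6 genes, the defining markers of both classes of projection neuron, were well above detection in every pool. The labels name the dorsal striatum as the source, while their extraction text also names the nucleus accumbens, and markers of other regions and cell types were not analysed here. The lowest sum of any of them was 6108 counts (Drd1 in pool 5 of Coc-Coc), and counting error of a pool's summed count was between 0.352% and 1.28% of it. The 4 technical replicates of a pool gave an unadjusted chi-square P under 0.05 in 4 of 54 tests of a gene in a pool. Sampling noise alone would put a share of about 0.05 of such tests there. Of the 4, 2 were of Penk. Its mean chi-square per degree of freedom was 1.96, against 0.53 (Tac1) to 1.14 (Drd1) for the other genes. The Penk replicates thus varied more than counting error alone gives. The technical replicates were summed as 1 sample. The spread between pools was much larger, with an estimated biological coefficient of variation of 13.5% (Penk) to 18.5% (Drd1). Pool 5 of Coc-Coc, which had the highest total count, stood apart from the other 8 pools. Fold changes of the 6 genes and correlations between them that rest on it are therefore given with and without it. Where this was not done, the text says so. Levels are counts per 1000000 counts (CPM) on TMM-scaled libraries, and they are compared between pools for a gene, not between genes, since transcript length was not corrected for.

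Of the 6 genes, Pdyn differed most between groups, with higher values after a last day of cocaine. Its level in pools 5, 6 and 7 was 207.1, 240.7 and 235.0 CPM for Sal-Sal, 279.1, 295.4 and 362.4 CPM for Sal-Coc, and 206.8, 262.9 and 348.7 CPM for Coc-Coc. Every Sal-Coc pool was above every Sal-Sal pool, whereas the Coc-Coc pools spread over the range of both groups. The mean was 227.6 ± 18.0 CPM for Sal-Sal, 312.3 ± 44.2 CPM for Sal-Coc and 272.8 ± 71.5 CPM for Coc-Coc (SD, n = 3 pools). Sal-Coc exceeded Sal-Sal by 0.46 ± 0.17 on the log2 scale (SE), a fold change of 1.37 with a 95% confidence interval from 1.05 to 1.78. In edgeR's quasi-likelihood test the unadjusted P was 0.023, and the Benjamini-Hochberg adjusted P over all genes was 0.57, so the difference did not pass the threshold of 0.05. The unadjusted P rose to 0.079 without pool 5 of Sal-Sal and to 0.10 without pool 7 of Sal-Coc in the same edgeR test, and it was lower, at 0.0032, without pool 5 of Coc-Coc, which enters this comparison through the shared estimate of spread.

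The other direct pathway genes showed no such separation. In the same pool order, Drd1 was at 218.7, 309.6 and 266.6 CPM for Sal-Sal, 261.5, 216.0 and 294.7 CPM for Sal-Coc, and 150.2, 248.7 and 275.9 CPM for Coc-Coc. The 3 groups overlapped, and the lowest value by far was that of pool 5 of Coc-Coc. Tac1, the precursor of substance P and neurokinin A, was at 261.8, 276.0 and 274.5 CPM for Sal-Sal, 266.3, 256.4 and 320.8 CPM for Sal-Coc, and 165.6, 291.7 and 244.8 CPM for Coc-Coc. The Sal-Sal pools of Tac1 lay close together (coefficient of variation 2.88%), and those of both cocaine groups spread to either side of them.

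The indirect pathway genes overlapped between all groups as well. Drd2 was at 282.5, 325.3 and 307.5 CPM for Sal-Sal, 314.6, 283.5 and 340.1 CPM for Sal-Coc, and 195.9, 326.7 and 278.8 CPM for Coc-Coc. Adora2a was at 459.3, 473.6 and 486.0 CPM for Sal-Sal, 543.6, 485.5 and 589.7 CPM for Sal-Coc, and 328.8, 538.5 and 495.0 CPM for Coc-Coc. A Sal-Coc pool of Adora2a fell just below the highest Sal-Sal pool, and the other 2 were above all of them. Penk was at 1673, 1926 and 1803 CPM for Sal-Sal, 2033, 1636 and 2257 CPM for Sal-Coc, and 1351 (pool 5), 2000 (pool 6) and 1726 (pool 7) CPM for Coc-Coc. In each of these genes pool 5 of Coc-Coc again had the lowest value.

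**Figure D1:**
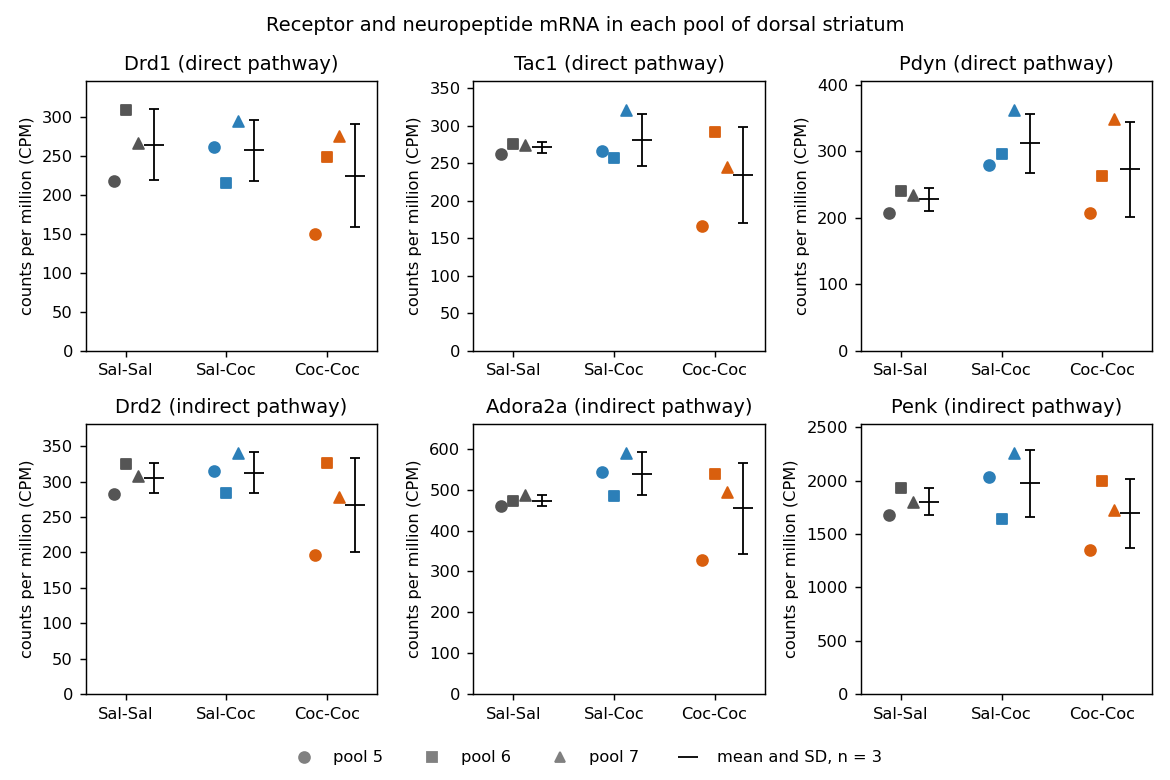
Level of the 6 genes in each pool (y axis, CPM from 0; x axis, group; marker shape, pool number; bar, mean ± SD of 3 pools). Pdyn is the gene whose 3 Sal-Coc pools (279.1 to 362.4 CPM) all lie above its 3 Sal-Sal pools (207.1 to 240.7 CPM), and pool 5 of Coc-Coc is the lowest point in every panel.

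How these genes responded to cocaine on the last day alone was asked by comparing Sal-Coc with Sal-Sal. Of the 6 genes, 0 passed an adjusted P of 0.05 in edgeR's quasi-likelihood test, as did 0% of all genes tested, and in DESeq2 also 0 of the 6 passed, against 59 genes in all. Pdyn was the 1 gene of 6 with an unadjusted P under 0.05, against 7.96% of all genes tested (2.95% when only higher genes are counted). It was also the 1 gene of 6 whose pools did not overlap, against 18.4% of all genes (8.87% higher). The log2 fold change was 0.19 ± 0.16 (SE) for Adora2a, 0.13 ± 0.15 for Penk, 0.054 ± 0.17 for Tac1, 0.036 ± 0.16 for Drd2 and −0.042 ± 0.21 for Drd1. The intervals of these 5 included 0, with bounds as far as −0.51 for Drd1 and 0.54 for Adora2a, so a change of that size in either gene was within the error. Without pool 5 of Coc-Coc, Adora2a stayed at 0.19 with an unadjusted P of 0.028 and an adjusted P of 0.36 in edgeR's test. Over the 6 genes the median log2 fold change was 0.094, against 0.011 over all genes tested.

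Cocaine on every day was then compared with saline (Coc-Coc vs. Sal-Sal), against the same Sal-Sal pools. Here 0 of the 6 genes passed the adjusted threshold in edgeR (0% of all genes) and in DESeq2 (24 genes in all), 0 had an unadjusted P under 0.05 in edgeR (7.18% of all genes), and 0 had pools that did not overlap (12.6% of all genes). Pdyn had a positive value, 0.26 ± 0.17 (SE) on the log2 scale with a 95% interval from −0.12 to 0.64. The values of the other 5 were negative, from −0.24 for Drd1 to −0.059 for Adora2a, and their intervals included 0. Their size, and for Adora2a and Penk their sign, rested on pool 5 of Coc-Coc: without it, Drd1, Tac1 and Drd2 were at −0.014, −0.013 and −0.011, and Adora2a and Penk at 0.13 and 0.049. Without this pool Pdyn was at 0.43 ± 0.13 (SE), with an unadjusted P of 0.0089 and an adjusted P of 0.70 in edgeR's test. Without pool 7 of Coc-Coc, its highest pool of that group, the Pdyn value was 0.045, and without pool 6 Tac1 and Drd2 were at −0.41 and −0.37, with unadjusted P values of 0.028 and 0.031 and adjusted P values of 0.38 and 0.39 in edgeR.

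The Coc-Coc vs. Sal-Coc comparison set repeated cocaine against a last day of it. All 6 genes had lower values in Coc-Coc, by similar amounts, from −0.19 for Drd1 to −0.26 for Tac1 on the log2 scale. Of all genes tested, 52.6% had higher values in Coc-Coc. The same pools gave all 6 values, so they are not 6 independent results. None of these passed a test: the 6 unadjusted P values of edgeR's quasi-likelihood test ran from 0.14 to 0.38, so 0 genes had one under 0.05 (6.93% of all genes), 0 passed after adjustment (0% of all genes) and 0 had pools that did not overlap (10.6%). DESeq2 called 0 of the 6 and 2 genes in all. The median log2 fold change was −0.23 over the 6 genes and 0.0094 over all genes. Without pool 5 of Coc-Coc the values shrank to between −0.085 (Penk) and 0.027 (Drd1). Without pool 6 of Coc-Coc, Tac1, Drd2, Adora2a and Penk had unadjusted P values in edgeR from 0.017 to 0.041, and without pool 7 of Coc-Coc Pdyn was at −0.41 with one of 0.016, while the adjusted P values were 0.33 or more.

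**Figure D2:**
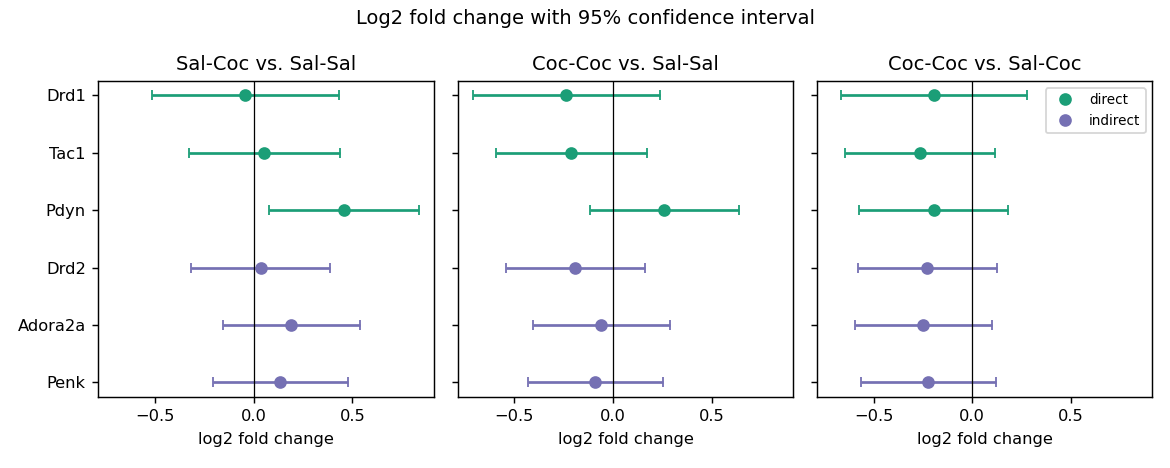
Log2 fold change of each gene in the 3 comparisons (x axis; points, estimates of edgeR's fit; lines, 95% confidence intervals; green, direct pathway; purple, indirect pathway). The interval of Pdyn for Sal-Coc vs. Sal-Sal, which runs from 0.077 to 0.84, is the only one of the 18 that does not include 0, and in Coc-Coc vs. Sal-Coc all 6 points lie left of 0.

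Pool 5 of Coc-Coc gave the lowest of the 9 values for 6 of 6 genes, direct and indirect alike, where it gave the lowest value for 22.0% of all genes tested. Against the median of the other 8 pools it was lower by 0.81 for Drd1, 0.71 for Tac1, 0.67 for Drd2, 0.58 for Adora2a, 0.46 for Penk and 0.39 for Pdyn, on the log2 scale. The median difference was −0.62 over the 6 genes and 0.0027 over all genes. For Pdyn the value of this pool, 206.8 CPM, was next to that of the lowest Sal-Sal pool, 207.1 CPM, whereas for Drd1 it lay at 150.2 CPM with the next pool at 216.0 CPM. In tissue RNA of this kind, fewer cells of a type and less RNA per cell cannot be told apart, and the part of dissection or RNA quality in this pool was not tested. With this pool included, pools of a group differed more in these genes than in most. The standard deviation within groups was 0.22 (Penk) to 0.33 (Drd1) on the log2 scale, against a median of 0.15 over all genes tested. Between 16.3% (Drd1) and 31.9% (Penk) of genes spread more. This spread was not taken without pool 5 of Coc-Coc, so how far it rests on that pool is not given.

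The balance of the pathways was taken within each pool as the mean log2 CPM of the 3 direct genes minus that of the 3 indirect genes, so that a loss common to all 6 cancels. In pools 5, 6 and 7 it was −1.40, −1.28 and −1.32 for Sal-Sal, −1.39, −1.26 and −1.24 for Sal-Coc, and −1.36, −1.40 and −1.11 for Coc-Coc. The groups overlapped throughout, and pool 5 of Coc-Coc lay among the others. The group means were −1.33 ± 0.058, −1.30 ± 0.079 and −1.29 ± 0.16 (SD, n = 3 pools), and they differed by 0.038, 0.043 and 0.0049 in the 3 comparisons, less than the pooled SD within groups of 0.11. The receptors alone (Drd1 minus the mean of Drd2 and Adora2a) differed by −0.15 in Sal-Coc and −0.11 in Coc-Coc against Sal-Sal, and the peptides alone (mean of Tac1 and Pdyn minus Penk) by 0.13 and 0.097. These were opposite in sign and smaller than their own pooled SDs of 0.16 and 0.14.

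Within the direct pathway, the values of Pdyn stood apart from those of Drd1 and Tac1. Without Pdyn, the balance was −1.26 ± 0.069 for Sal-Sal, −1.37 ± 0.047 for Sal-Coc and −1.38 ± 0.12 for Coc-Coc (SD, n = 3 pools), which is lower in the cocaine groups by 0.11 and 0.12, with a pooled SD of 0.084 and pools of all groups overlapping. Pdyn itself was then set against the mean of the other 5 genes in the same pool, a measure chosen after its values were seen and given with no test. This difference was −1.01, −0.99 and −0.96 in the Sal-Sal pools, −0.77, −0.49 and −0.56 in the Sal-Coc pools, and −0.50, −0.87 and −0.33 in the Coc-Coc pools. All 6 cocaine pools were above all 3 Sal-Sal pools, pool 5 of Coc-Coc included, although its Pdyn level in CPM was the lowest of the 9, since its other 5 genes were lower still. Relative to the same 5 genes, 0.598% of all genes tested had the 6 cocaine pools above the Sal-Sal pools. For Pdyn, the group means differed from Sal-Sal by 0.38 in Sal-Coc (a ratio of 1.30) and 0.42 in Coc-Coc (a ratio of 1.34), and from each other by 0.039, with a pooled SD of 0.18. Drd2 separated too, in the other direction, but in a measure that is not independent of Pdyn. A higher Pdyn raises the mean that Drd2 is set against. With Pdyn left out of that mean, cocaine and Sal-Sal pools overlapped for Drd2. Pool 6 of Sal-Coc and pool 5 of Sal-Sal, for example, had log2 CPM of 8.15 and 8.14 for Drd2. They had 7.76 and 7.77 for Drd1, 8.00 and 8.03 for Tac1, 8.92 and 8.84 for Adora2a, and 10.68 and 10.71 for Penk. For Pdyn they had 8.21 and 7.69. The separation of Drd2 therefore depended on Pdyn being in the mean. Relative to its own other 5 genes, of which Pdyn is one, it was at −0.47, −0.47 and −0.49 in the Sal-Sal pools, −0.56, −0.57 and −0.66 in the Sal-Coc pools, and −0.60, −0.49 and −0.72 in the Coc-Coc pools. All 6 cocaine pools were below all 3 Sal-Sal pools, the nearest by very little, and 0.812% of all genes tested did the same relative to those 5 genes. The group means of Drd2 differed from Sal-Sal by −0.12 in both cocaine groups, with a pooled SD of 0.073, and the remaining 4 genes overlapped between groups in this measure.

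**Figure D3:**
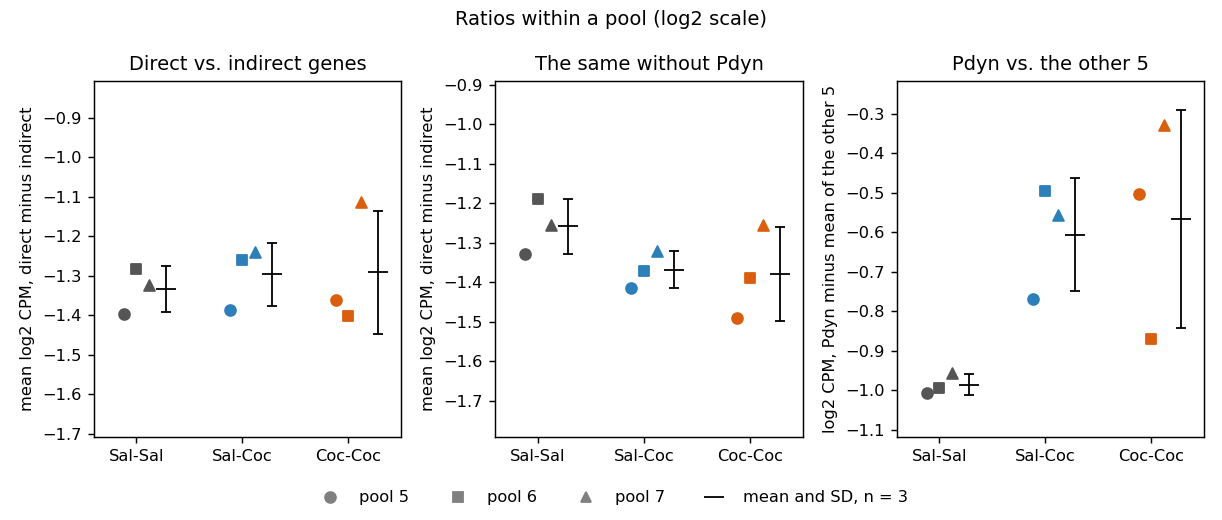
Log2 ratios within each pool by group (y axes, log2 scale, not starting at 0; marker shape, pool number; bar, mean ± SD of 3 pools). The balance of 3 direct and 3 indirect genes overlaps between groups (left), as it does without Pdyn (middle), while Pdyn relative to the other 5 genes is from −1.01 to −0.96 in Sal-Sal pools and from −0.87 to −0.33 in the 6 cocaine pools (right).

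Over the 9 pools the genes of both pathways varied together, with Pdyn the loosest. Among the 10 pairs without Pdyn, Pearson's r of log2 CPM ran from 0.83 to 0.98 and Spearman's rho from 0.48 to 0.97. By exact permutation, with adjustment over all 15 pairs, r passed an adjusted P of 0.05 in 10 of these 10 pairs and rho in 4. Among the 5 pairs with Pdyn, r ran from 0.46 (Drd2) to 0.68 (Adora2a) and rho from 0.30 to 0.78, and by the same exact test r passed in 1 and rho in 0 (1 had an unadjusted P under 0.05). The closest pair crossed the pathways: Tac1 and Drd2 had r = 0.98 and rho = 0.97, for which the exact permutation test gave adjusted P values of 0.00045 and 0.0025. Drd1 and Tac1, which are expressed by the same class of neuron, had r = 0.85 and rho = 0.60, with exact permutation P values of 0.028 and 0.16 after adjustment.

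Much of this agreement came with pool 5 of Coc-Coc, whose 6 values were all low. Without it r ran from 0.36 to 0.93 in the 10 pairs without Pdyn, of which 4 passed the exact permutation test after adjustment, and from 0.12 to 0.65 in the 5 pairs with Pdyn, of which 0 passed. The 4 were Tac1 with Drd2 (r = 0.89), Tac1 with Penk (0.84), Drd2 with Penk (0.93) and Adora2a with Penk (0.86). Without the 2 pools farthest from the median of the first gene, r of the 10 pairs ran from 0.30 to 0.90, with the lowest values in Drd1 with Adora2a (0.30), Drd1 with Tac1 (0.31) and Tac1 with Adora2a (0.35). Each pool was also taken as its deviation from the group mean. Then r ran from 0.83 to 0.97 in the 10 pairs and from 0.60 to 0.86 in those with Pdyn. The values with Pdyn were higher than over all pools, with pool 5 of Coc-Coc included in both. Deviations were not taken without that pool, so whether this holds without it was not tested. Pools share depth and the handling of their tissue across genes, and these values describe 9 pools only.

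**Figure D4:**
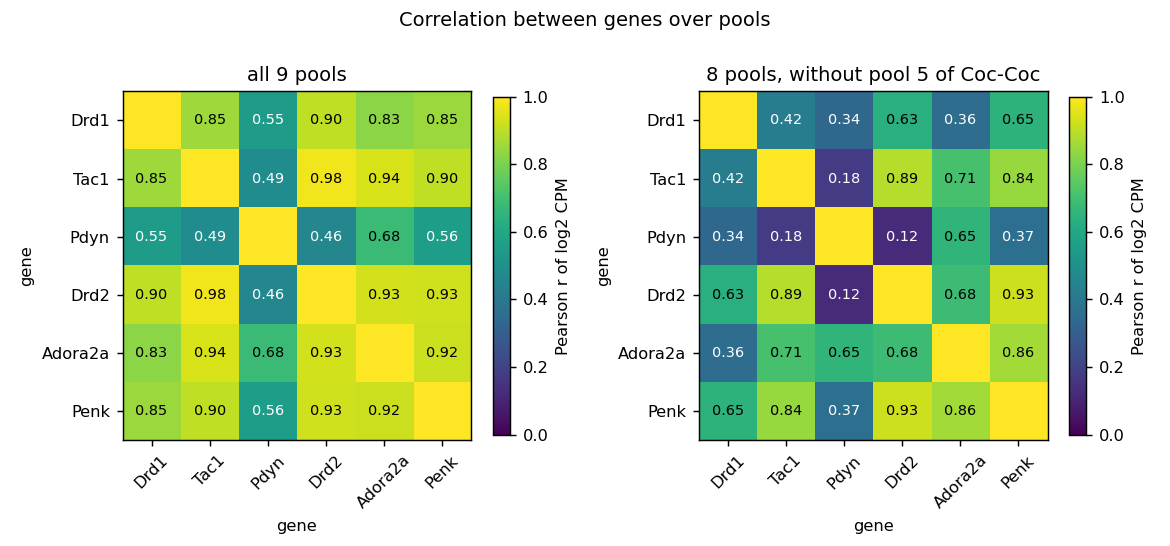
Pearson's r of log2 CPM between each pair of genes (axes, genes; colour, r from 0 to 1), over all 9 pools (left) and over the 8 pools without pool 5 of Coc-Coc (right). Pairs of Pdyn have r from 0.46 to 0.68 on the left and from 0.12 to 0.65 on the right, and the pair of Tac1 and Drd2 keeps r = 0.89 without that pool.

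Many other genes had patterns as close to these as the 6 had to each other. Ranked by r among the other 15883 genes tested, Tac1 was in place 1 for Drd2, and Drd2 in place 3 for Tac1. For Penk the nearest of the 6 was Drd2, in place 55, for Adora2a it was Tac1, in place 86, and for Drd1 it was Drd2, in place 179. For Pdyn the nearest was Adora2a, in place 1100, and the others lay between places 2190 and 3069. Outside the 6, the 2 genes most like each had r between 0.966 and 0.996, and ENSRNOG00000000522 was the first of these for both Tac1 (r = 0.993) and Drd2 (r = 0.979).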

How the data were processed

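The deposited files held raw read counts per Ensembl gene ID, 1 file for each of 36 libraries, which the authors made from stranded poly(A) libraries. The submitters' processing notes name bcl2fastq 2.18.0.12, STAR and HTSeq 0.5.3, and whether counting used strand is not given in the sources used here. Counts of the 4 technical replicates were summed per pool. In R 4.3.3, edgeR 4.0.16 kept genes by filterByExpr (minimum count 10, minimum total 15), scaled libraries by TMM and fitted all 9 pools with a mean per group. The two-sided quasi-likelihood test was adjusted over all genes tested by the Benjamini-Hochberg method. The scripts were tested on simulated data. Log2 CPM used a prior count of 2. Alternatives were DESeq2 1.42.0, upper-quartile scaling, no filter, the 6 pools compared, a replicate block and leaving out each pool. The correlations without pool 5 of Coc-Coc and the ratios of single genes to the other 5 were added after seeing the data. The 6 genes, their pairing with the IDs and the lists were chosen with earlier results of these data known. A RefSeq table of GRCr8 matched 0 of the 32402 IDs, so lists of other pathway genes and of cell type markers, which were to be described by symbol, were not analysed here. All 6 genes are named, and for each the 2 genes with the most similar pattern were sought.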

Additional observations from a re-analysis of the deposited data

How the results depend on the processing

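With 3 pools per group, none of the 6 genes passed an adjusted P of 0.05 under any of the alternatives run, in any comparison. Counting error of a pool's sum was at most 1.28%, against a biological coefficient of variation of 13.5% to 18.5%. What kept the genes from passing was not tested. The log2 fold change of Pdyn in Sal-Coc vs. Sal-Sal was 0.45 to 0.46 over 5 other settings, with an adjusted P from 0.17 (edgeR on the 6 pools compared) to 0.58 (edgeR without a filter). It was 0.34 to 0.53 when each pool was left out in turn, with an adjusted P in edgeR from 0.21 to 0.99. The fit with a replicate block by pool number gave 0.45, with an unadjusted P of 0.0035 and an adjusted P of 0.52 in edgeR, and the replicate block changed no call. Across genes, deviations from the group mean correlated between −0.19 and 0.16 in pools of the same number. Pools of different number were not compared in this way, so these values do not decide whether the numbers pair the pools.

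The fold change of a gene turned its direction only when a pool was left out. Drd1 in Sal-Coc vs. Sal-Sal ranged from −0.16 to 0.086, Tac1 from −0.051 to 0.11 and Drd2 from −0.029 to 0.095. For Coc-Coc vs. Sal-Sal the range of Adora2a was −0.21 to 0.13 and that of Penk −0.23 to 0.049, and Drd1 in Coc-Coc vs. Sal-Coc ranged from −0.37 to 0.027. The last 3 turned without pool 5 of Coc-Coc. The reversed values were 0.086 and 0.064 for Drd1 (without pool 6 of Sal-Sal or of Sal-Coc), −0.051 for Tac1 (without pool 7 of Sal-Coc), and −0.016 and −0.029 for Drd2 (without pool 5 of Sal-Sal or pool 7 of Sal-Coc). The cause was not tested. The difference in balance between pathways turned negative with the receptors alone, to −0.15 in Sal-Coc and −0.11 in Coc-Coc against Sal-Sal, a shift larger than the pooled SD of the 6-gene balance (0.11), although both values were smaller than the receptors' own pooled SD (0.16). For Coc-Coc vs. Sal-Coc, the peptides alone turned it to −0.029 from 0.0049. Leaving out a pool turned the 6-gene balance as well. Without pool 7 of Coc-Coc it was −0.046 for Coc-Coc vs. Sal-Sal and −0.085 for Coc-Coc vs. Sal-Coc. Without pool 5 of Sal-Coc it was −0.040 for Coc-Coc vs. Sal-Coc. These values were smaller than the pooled SD of 0.11, and without any other pool the difference stayed positive. Over all genes, the number past an adjusted P of 0.05 was 0 in edgeR as reported and 59, 24 and 2 in DESeq2 in the 3 comparisons. Among the other edgeR fits, the Coc-Coc vs. Sal-Sal count rose to 2 with no filter, 4 without pool 5 of Coc-Coc and 6 without pool 6 of Coc-Coc.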
